A study of Mus musculus with 6 samples.

Results

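The genes described here encode orphan G protein-coupled receptors, named Gpr with a number, and adhesion G protein-coupled receptors, named Adgr. Members were all rows whose Entrez number maps to a symbol made of Gpr and a digit or starting with Adgr. This gave 95 genes of 25206 rows, 70 of them Gpr and 25 Adgr. The rule uses symbols alone, but it was chosen with earlier results of these data known. Expression was measured in mouse group 2 innate lymphoid cell (ILC2) lines of the C57BL/6J strain, kept in 10 ng/ml of IL-2 and as much IL-33. All cells carried a lentiviral CRISPR construct with GFP and were sorted as GFP-positive 6 days after transduction. In the Cbfb knockout group the guide targeted Cbfb, whose product pairs with RUNX transcription factors and strengthens their hold on DNA, and in the control group the guide had no target. Each group had 3 arrays, and the sort selected for the construct and not for the edit, so unedited cells may be present. Nothing in the labels tells whether replicates were grown as separate cultures, so a p-value here reflects the spread among these 6 samples alone, and that spread may be technical.

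G protein-coupled receptors span the membrane and pass a signal from an outside ligand to heterotrimeric G proteins, which change cyclic AMP or calcium. Orphan receptors are those whose natural ligand was unknown when they were named, and several have since been paired with protons, lysolipids, oxysterols or peptides. Adhesion receptors carry a long extracellular part that binds matrix or neighbouring cells and that is cut from the membrane part in many members. Lymphocytes use such receptors to sense acid, lipids and position in tissue.

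Values are log2 expression values, and array medians lay between 3.57 and 3.63. Pearson correlations across all rows were 0.9946 to 0.996 within groups and 0.988 to 0.9908 between groups. Cbfb itself read 7.88, 7.69 and 7.91 in the knockout arrays, against 8.53, 8.73 and 8.70 in the control arrays (difference -0.83, limma adjusted p = 0.00205). Thus 56.4% of the control signal remained. A CRISPR edit need not remove the transcript, and protein was not measured. The ILC2 markers Gata3 (10.68 and 10.58 in knockout and control), Klrg1 (11.36 and 11.37) and Ptprc (10.77 and 10.69) were read far above the median, while Thy1 read 3.41 in both groups, under the median. Other ILC2 markers differed: Rora, a transcription factor needed for ILC2 development, averaged 5.53 in knockout and 3.32 in control (4.65-fold higher, adjusted p = 0.000562). Its control readings of 2.94, 3.62 and 3.39 were above the array median on 1 array only. Icos (difference -0.78), Il7r (-0.56), Id2 (-0.35) and Il5 (-0.33) fell. The number of arrays limits the precision.

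In knockout ILC2s 11 of the 95 receptor genes passed the test, an adjusted p under 0.05 in limma, 8 of them lower and 3 higher than in control. Those that fell were Gpr141, Adgrg3, Gpr171, Gpr65, Gpr141b, Gpr34, Adgrl3 and Gpr132, and those that rose were Adgrb3, Gpr55 and Gpr119. The 11 make 11.6% of the receptor genes, against 9.75% of all rows that passed, so the share lies near that of the table as a whole. Among all rows 4.24% passed as lower and 5.51% as higher in the knockout. For 23 receptor genes (24.2%) knockout and control values did not overlap, against 27.5% of all rows. The median difference over the 95 genes was -0.047 on the log2 scale, against -0.007 over all rows. In bulk RNA, fewer cells that express a gene and less RNA per cell cannot be told apart.

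**Figure D1:**
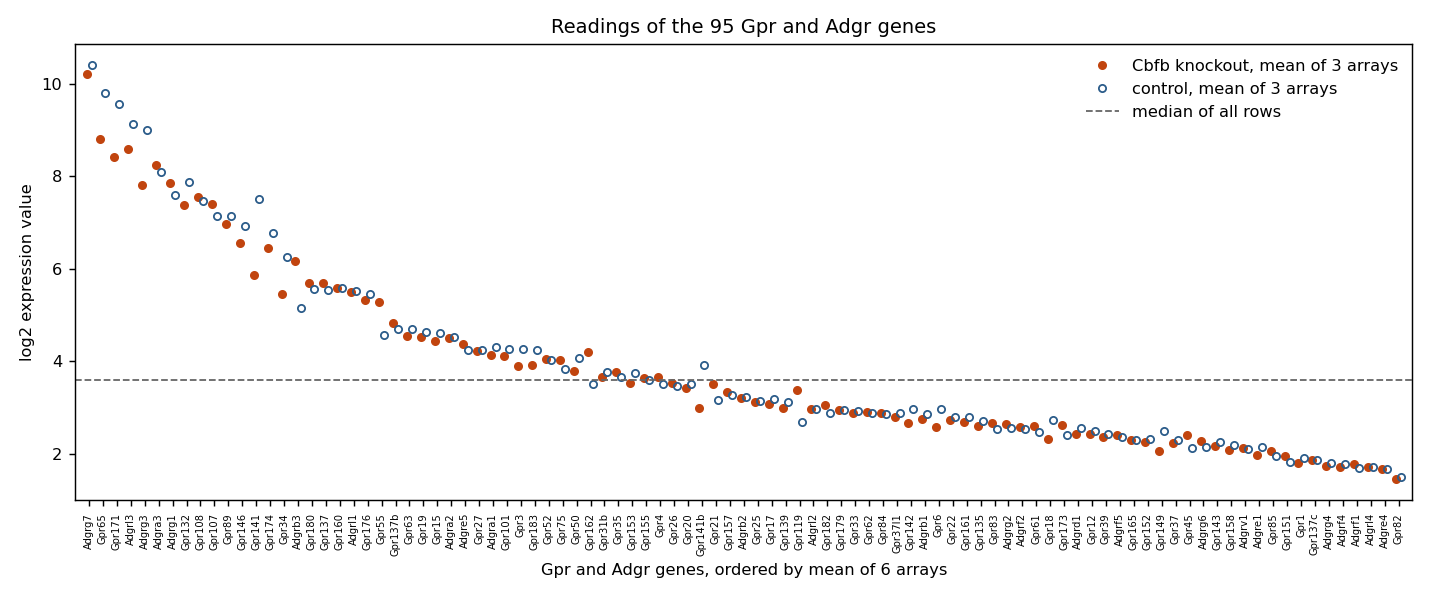
Mean log2 value of each of the 95 genes (horizontal axis, ordered by the mean of 6 arrays) in knockout (filled) and control (open), with the median of all rows as a dashed line at 3.6. Most points lie under or near the line, and the widest gap between filled and open points is that of Gpr141, which averaged 5.86 in knockout and 7.5 in control. Gpr141b and Gpr119 also stand apart, with means over 6 arrays under the line.

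Of the 95 genes, 36 read above the array median on all 6 arrays (37.9%, against 46.3% of all rows), 50 on none and 9 on some. A reading depends on its probes as well as on its transcript, and the table holds no detection calls, so each gene is set against the median and not against other genes. The adhesion receptors above the median on every array were Adgrg7, Adgrl3, Adgrg3, Adgra3, Adgrg1, Adgrb3, Adgrl1, Adgra2, Adgre5 and Adgra1. The proton sensors above it were Gpr65 and Gpr132, and the lipid receptors were Gpr174, Gpr34, Gpr55, Gpr3 and Gpr183. Gpr171, Gpr160, Gpr15, Gpr75 and Gpr50 formed the peptide and metabolite receptors above it. Among proteins of inner membranes these were Gpr108, Gpr107, Gpr89, Gpr180, Gpr137 and Gpr137b. The other receptor genes above it were Gpr146, Gpr141, Gpr176, Gpr63, Gpr19, Gpr27, Gpr101 and Gpr52. Just inside this limit were Gpr50 (3.72 to 3.84 in knockout, 3.77 to 4.24 in control) and Gpr75 (3.90 to 4.19 and 3.67 to 3.97), and just outside it were Gpr31b, above on 5 arrays (3.59 to 3.76 and 3.72 to 3.83), and Gpr35 and Gpr162, above on 4. The 50 genes under the median on every array averaged 1.47 to 3.49 over 6 arrays, where changes can be understated.

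Genes read above the median passed the test more often, as did all rows. Of the 41 receptor genes with a mean over 6 arrays above the median row, 9 passed (22.0%), against 18.1% of all such rows. Of those 41, 7 fell and 2 rose, while 977 fell and 1301 rose among all 12601 such rows. The median difference of the 41 genes was -0.117, against 0.003 for all rows above the median row. Of the 54 genes at or under it 2 passed, Gpr141b and Gpr119 (3.7%, against 1.42% of all such rows).

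The largest measured difference was that of Gpr141, an orphan class A receptor without an established ligand. It read 5.76, 5.91 and 5.92 in the knockout arrays, against 7.45, 7.64 and 7.40 in the control arrays. Every knockout array was below every control array by more than a log2 unit, and the mean was 3.1-fold lower in the knockout (difference -1.63, 95% interval -1.86 to -1.41, limma adjusted p = 0.000111). Its relative Gpr141b, the adjacent measured gene in RefSeq order on chromosome 13, read 2.99, 3.02 and 2.96 in the knockout arrays, against 3.64, 4.07 and 4.04 in the control arrays. Gpr141b was thus above the median only in control, and its difference of -0.93 also passed (adjusted p = 0.00324). Elmo1, on the other side of Gpr141, differed by -0.11 (adjusted p = 0.484), and Nme8, beside Gpr141b, by -0.05 (adjusted p = 0.878). Whether probes of these relatives share transcripts was not tested.

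Promoters of 6 of the receptor genes that passed are shown because Cbfb acts through RUNX proteins, which bind TGTGGT and, less often, TGCGGT. Both were searched on both strands from 250 bases before to 50 bases after each start in RefSeq promoters of build GRCm38.p6. RefSeq held 92 promoters for 72 of the 95 genes, and 11 promoters for 9 of the 11 that passed. TGTGGT was found in 26.1% of the 92 promoters, against 16.8% of all 32851 promoters, and TGCGGT in 4.35% against 6.45%. Of the 11 promoters of genes that passed, 4 held TGTGGT and 1 held TGCGGT. A match is a run of letters and not a bound site. Capitals below mark these motifs as they stand on the printed strand, each sequence running 5′ to 3′ along its gene. Gpr141 lies on the minus strand (chr13:19824208-19824507), with TGTGGT starting 56 bases before the start, and Gpr141b too (chr13:19732902-19733201), with TGCGGT 53 bases before it. Gpr132 (chr12:112860867-112861166, minus strand) holds TGTGGT 96 bases before its start. Gpr55 (chr1:85961006-85961305, minus strand), which rose, holds it in reverse, as ACCACA, 150 bases before its start. Adgrg3 (chr8:95017442-95017741, plus strand) and Gpr65 (chr12:98268385-98268684, plus strand), which fell, hold neither in this window and are shown beside them. Not printed are Adgrl3, with TGTGGT 219 bases before the start in 1 of its 3 promoters, and Adgrb3 and Gpr119, which rose and hold neither motif.
Gpr141: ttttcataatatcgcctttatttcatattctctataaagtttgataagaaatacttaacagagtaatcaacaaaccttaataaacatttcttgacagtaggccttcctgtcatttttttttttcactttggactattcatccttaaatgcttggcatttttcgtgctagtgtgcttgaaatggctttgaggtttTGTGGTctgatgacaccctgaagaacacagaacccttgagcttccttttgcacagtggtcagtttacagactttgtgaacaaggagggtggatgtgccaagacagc
Gpr141b: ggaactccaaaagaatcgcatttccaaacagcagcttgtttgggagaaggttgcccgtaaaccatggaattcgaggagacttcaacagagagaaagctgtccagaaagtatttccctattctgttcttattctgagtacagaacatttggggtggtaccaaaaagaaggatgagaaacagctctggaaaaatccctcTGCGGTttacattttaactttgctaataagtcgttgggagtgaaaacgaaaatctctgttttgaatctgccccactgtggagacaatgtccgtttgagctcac
Gpr132: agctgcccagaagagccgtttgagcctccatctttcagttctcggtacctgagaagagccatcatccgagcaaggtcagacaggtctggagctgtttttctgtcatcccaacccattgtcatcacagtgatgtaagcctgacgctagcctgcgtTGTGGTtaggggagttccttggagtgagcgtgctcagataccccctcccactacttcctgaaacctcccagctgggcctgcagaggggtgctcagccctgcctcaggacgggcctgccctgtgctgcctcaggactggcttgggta
Gpr55: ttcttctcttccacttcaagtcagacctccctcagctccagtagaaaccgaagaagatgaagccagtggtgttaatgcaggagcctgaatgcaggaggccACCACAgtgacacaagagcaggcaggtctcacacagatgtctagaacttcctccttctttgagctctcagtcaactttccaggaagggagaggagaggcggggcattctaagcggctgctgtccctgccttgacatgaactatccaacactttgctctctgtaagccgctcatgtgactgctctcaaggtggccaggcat
Adgrg3: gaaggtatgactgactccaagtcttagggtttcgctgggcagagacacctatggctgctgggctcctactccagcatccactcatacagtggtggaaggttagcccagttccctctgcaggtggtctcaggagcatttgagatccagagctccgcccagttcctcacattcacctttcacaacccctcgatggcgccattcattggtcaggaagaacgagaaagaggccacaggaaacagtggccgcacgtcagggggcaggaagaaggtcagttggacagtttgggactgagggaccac
Gpr65: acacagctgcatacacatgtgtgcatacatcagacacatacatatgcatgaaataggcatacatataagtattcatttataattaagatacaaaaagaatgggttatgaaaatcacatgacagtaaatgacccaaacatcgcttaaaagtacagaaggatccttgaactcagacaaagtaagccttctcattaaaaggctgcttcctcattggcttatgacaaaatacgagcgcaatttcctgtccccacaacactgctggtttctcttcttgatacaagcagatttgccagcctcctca

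The proton sensors couple a drop in outside pH to G proteins, and 3 of them were measured. Gpr65, which raises cyclic AMP when the surroundings turn acid, read 8.79, 8.82 and 8.81 in the knockout arrays, against 9.75, 9.92 and 9.74 in the control arrays. The knockout arrays lay close to one another and all below control, a 2-fold lower mean (difference -1.0, interval -1.19 to -0.80, limma adjusted p = 0.000506). Gpr132, which is tied to acid and to oxidised and lysolipids, read 7.33, 7.42 and 7.39 in the knockout arrays, against 8.16, 7.79 and 7.69 in the control arrays. The groups did not overlap, but control replicate 1 stood above the other control arrays, and the difference of -0.50 was near the threshold (adjusted p = 0.0447). Without control replicate 1 the difference was -0.36 (adjusted p = 0.0616), and the call was lost in 8 of 13 alternatives (adjusted p 0.00833 to 0.168). Gpr4, best known from endothelium, averaged 3.66 and 3.50 in knockout and control and did not pass (adjusted p = 0.44).

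Lipid receptors moved in both directions. Gpr34, a receptor for lysophosphatidylserine, read 5.40, 5.52 and 5.42 in the knockout arrays, against 5.93, 6.39 and 6.45 in the control arrays. All knockout arrays were below control, where replicate 1 was the lowest, and the mean was 1.75-fold lower (difference -0.81, interval -1.13 to -0.49, limma adjusted p = 0.01). Gpr174, which also senses lysophosphatidylserine in lymphocytes, read 6.45, 6.38 and 6.51 in the knockout arrays, against 6.68, 6.89 and 6.71 in the control arrays. These groups did not overlap either, but the difference of -0.31 did not pass (interval -0.52 to -0.10, adjusted p = 0.0731). Of 13 alternatives 3 called it (adjusted p 0.0262 to 0.225).

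Gpr55, which responds to lysophosphatidylinositol, read 5.25, 5.25 and 5.34 in the knockout arrays, against 4.73, 4.66 and 4.32 in the control arrays. It was higher on each knockout array, by 1.64-fold on the means (difference 0.71, interval 0.44 to 0.98, adjusted p = 0.00852). Gpr119, a sensor of fatty acid ethanolamides known from gut endocrine and pancreatic beta cells, read 3.13, 3.58 and 3.39 in the knockout arrays, against 2.54, 2.78 and 2.74 in the control arrays. Its rise of 0.68 passed (adjusted p = 0.0146), but every reading was under the array median, and without control replicate 1 it missed the threshold (adjusted p = 0.0533).

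Gpr183, which guides lymphocytes along oxysterol gradients, averaged 3.91 ± 0.11 in knockout and 4.24 ± 0.087 in control (SD, n = 3 arrays each). Its difference of -0.33 was the nearest miss among the 95 genes (interval -0.54 to -0.11, limma adjusted p = 0.0692). Gpr18, a lymphocyte receptor with proposed lipid ligands, averaged 2.32 and 2.72, under the median (difference -0.40, adjusted p = 0.0749). Gpr84, a receptor for medium-chain fatty acids in myeloid cells, read 2.88 and 2.86 on average in knockout and control. Of the 11 lipid receptors measured, 2 rose, 1 fell and 8 did not pass. Thus 27.3% passed, against 9.75% of all rows, and the median difference was -0.313 beside -0.007 over all rows.

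Of the 14 peptide, metabolite and chemoattractant-like receptors measured 1 passed (7.14%, against 9.75% of all rows). This was Gpr171, a receptor for the peptide BigLEN that restrains T cells, which read 8.32, 8.38 and 8.55 in the knockout arrays, against 9.55, 9.59 and 9.55 in the control arrays. All knockout arrays lay about a log2 unit below the closely grouped control arrays, and the mean was 2.21-fold lower (difference -1.15, interval -1.35 to -0.94, limma adjusted p = 0.000319). Pcsk1n, the gene of the BigLEN precursor, averaged 3.85 and 3.89 in knockout and control. Gpr15, a homing receptor of gut and skin lymphocytes, differed by -0.17 (interval -0.52 to 0.19), and Gpr35, a receptor for tryptophan metabolites, by 0.12 (interval -0.16 to 0.39). Gpr160, an orphan with a proposed peptide ligand, differed by 0.00 with an interval of -0.42 to 0.43, so differences of either sign within it remain compatible with these arrays.

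Adhesion receptors gave 3 passes among 25 measured, 2 lower and 1 higher. Adgrg3, a receptor of granulocytes and lymphocytes, read 7.67, 7.79 and 7.94 in the knockout arrays, against 8.98, 9.05 and 8.96 in the control arrays. The groups were more than a log2 unit apart, and the mean was 2.29-fold lower in the knockout (difference -1.20, interval -1.41 to -0.98, limma adjusted p = 0.000338). Adgrg1, the adjacent gene among measured rows and a marker of cytotoxic lymphocytes in humans, read 7.82, 7.83 and 7.91 in the knockout arrays, against 7.63, 7.56 and 7.62 in the control arrays. It thus lay on the other side of control, with a difference of 0.25 that did not pass (interval 0.07 to 0.43, adjusted p = 0.0929). Of 13 alternatives 3 called it (adjusted p 0.0209 to 0.252).

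Adgrl3, a latrophilin known from synapses, where it binds FLRT and teneurin proteins, read 8.54, 8.69 and 8.5 in the knockout arrays, against 9.08, 9.07 and 9.21 in the control arrays. The knockout mean was 1.46-fold lower without overlap (difference -0.54, interval -0.75 to -0.34, limma adjusted p = 0.00864). Its relative Adgrl1 differed by -0.02 (interval -0.29 to 0.25). Adgrb3, a brain receptor that binds C1q-like proteins, read 6.10, 6.27 and 6.12 in the knockout arrays, against 5.17, 4.98 and 5.29 in the control arrays. It was higher on every knockout array, by 2.02-fold on the means (difference 1.02, interval 0.78 to 1.26, adjusted p = 0.00105).

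Adgrg7, best known from intestine, read 10.19, 10.22 and 10.21 in the knockout arrays, against 10.30, 10.47 and 10.47 in the control arrays. All knockout arrays were lower, but the difference of -0.21 did not pass (limma adjusted p = 0.19). Adgra3 averaged 8.24 and 8.08 in knockout and control (adjusted p = 0.384). Adgre5, which encodes CD97, a leukocyte receptor that binds CD55, averaged 4.37 and 4.23 (adjusted p = 0.492). Adgre1, which encodes a surface marker of mouse macrophages, averaged 1.97 and 2.15, far under the median, and did not pass (adjusted p = 0.274). Adgrg5 was not analysed here.

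**Figure D2:**
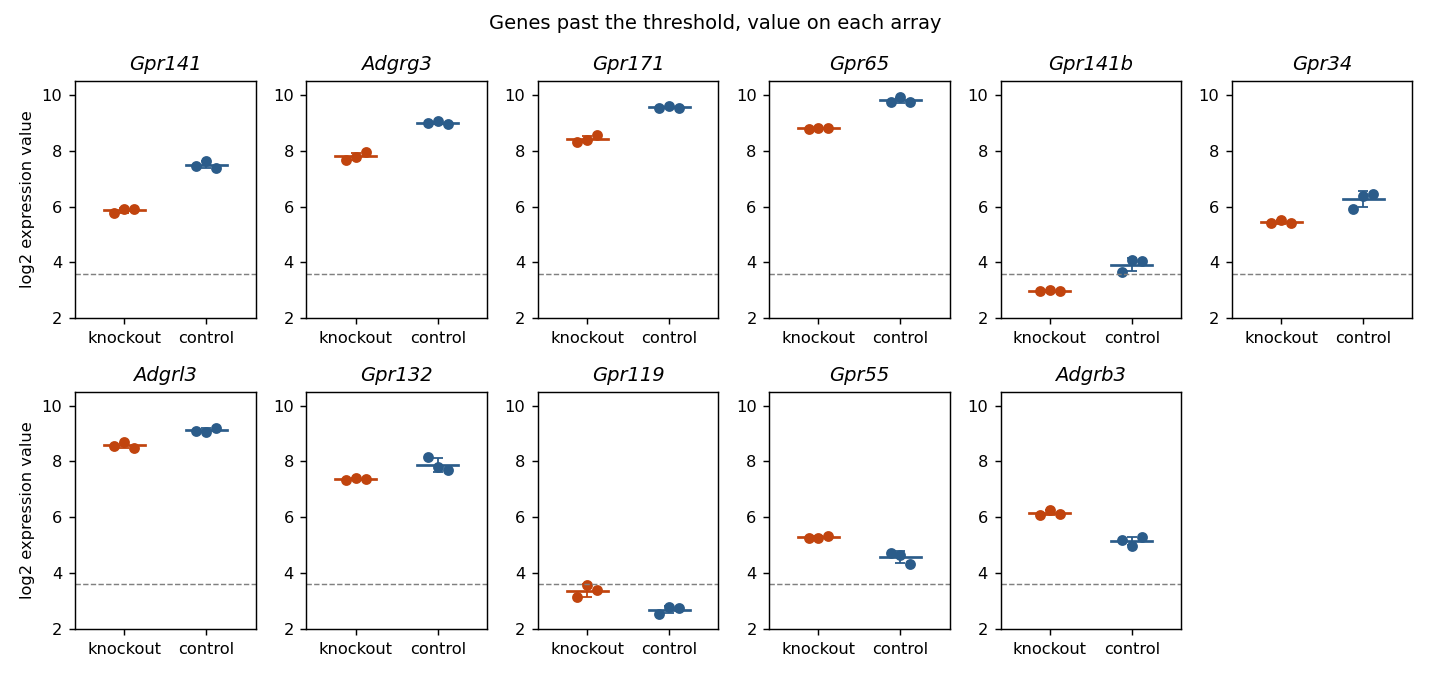
Log2 value on each array (points), group mean (line) and SD (bar, n = 3) for the 11 genes that passed, knockout left of control, with the median of all rows as a dashed line. In each panel the knockout and control points do not overlap, and Gpr119 and the knockout points of Gpr141b lie under the line.

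None of the 9 proteins of inner membranes passed the limma test. An unadjusted p under 0.05 was found for 2 of these 9 proteins, against 5780 of all 25206 rows. Several of these proteins act in the Golgi or lysosomes, among them Gpr89, an anion channel that sets Golgi pH. Gpr89 read 6.95, 7.01 and 6.93 in the knockout arrays, against 7.12, 7.14 and 7.17 in the control arrays (difference -0.18, adjusted p = 0.209). Gpr107 averaged 7.39 ± 0.12 and 7.14 ± 0.031 in knockout and control (difference 0.25, adjusted p = 0.139), and Gpr108, its relative, 7.55 and 7.47 (adjusted p = 0.682). Neither of the 2 receptors akin to the glutamate class, Gpr158 and Gpr179, passed or read above the median on any array.

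Of the 31 receptor genes placed in none of the groups above, Gpr141 and Gpr141b passed and 29 did not. Gpr146, a receptor that regulates lipoprotein output in liver, read 6.52, 6.56 and 6.60 in the knockout arrays, against 7.04, 7.0 and 6.71 in the control arrays. The groups did not overlap, with control replicate 3 nearest to the knockout, and the difference of -0.36 did not pass (limma adjusted p = 0.0769). Without control replicate 3 it was -0.46 and passed (adjusted p = 0.0342), as it did in 2 further alternatives. Chosen after its values were seen, Gpr162 had the widest difference among genes that did not pass, 0.70 (interval 0.21 to 1.19, adjusted p = 0.0868). It read 3.99, 4.35 and 4.26 in the knockout arrays, against 4.03, 3.21 and 3.26 in the control arrays, so control replicate 1 lay among the knockout arrays. Over all 84 genes that did not pass, differences ran between -0.43 and 0.70.

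**Figure D3:**
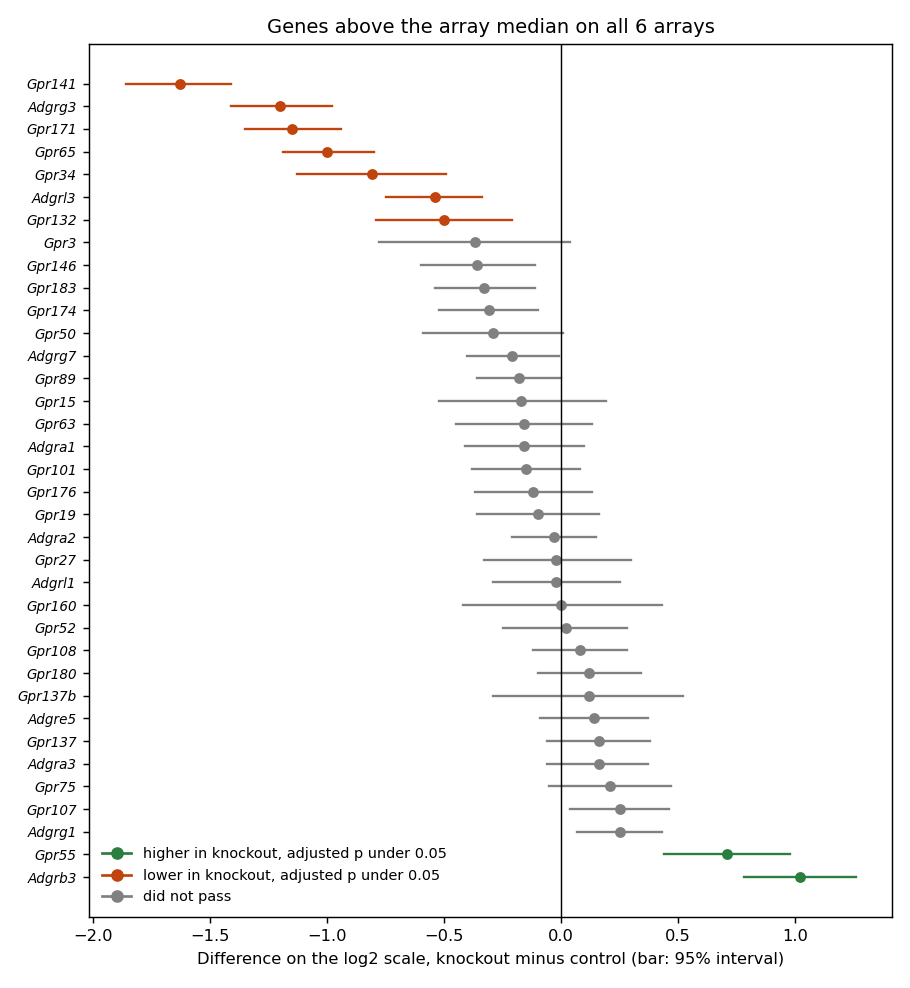
Difference on the log2 scale, knockout minus control (point), with its 95% interval (bar) for the 36 genes above the array median on all 6 arrays, ordered by the difference. The 7 genes that fell reach from Gpr141 at -1.63 to Gpr132 at -0.50, and Adgrb3 at 1.02 and Gpr55 at 0.71 rose.

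Genes close to the receptors that passed are given as a description, chosen after values were seen. Of 20 distinct measured neighbours in RefSeq order, 3 fell and 2 rose (25%, against 9.75% of all rows and 18.1% of rows with a mean above the median row). P2ry14, a receptor for UDP-sugars beside Gpr171, averaged 9.56 and 9.94 in knockout and control (difference -0.38, limma adjusted p = 0.0291). P2ry13 in the same receptor cluster averaged 2.17 and 2.71, under the median on every array (adjusted p = 0.026). Itm2c beside Gpr55 rose 2.11-fold (adjusted p = 0.000232). Cdca4 beside Gpr132 differed by -0.60 (limma adjusted p = 0.00822). Rbmx2 differed by -0.45 (limma adjusted p = 0.0133), while Gpr119 beside it rose. Gpr82, next to Gpr34, read 1.44 and 1.5, under the median. Gpr171 overlaps Med12l (difference 0.15, adjusted p = 0.4), Gpr34 overlaps Cask (-0.45, adjusted p = 0.238) and Adgrb3 overlaps the predicted gene Gm20172 (0.65, adjusted p = 0.0159). How far signals of overlapping genes mix was not tested.

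In 4 lists of genes that act downstream of the receptors, or are related to such genes, 76 were measured, of which 7 rose and 3 fell in the knockout. These are 13.2%, against 9.75% of all rows and 18.1% of rows with a mean above the median row, and 48 of the 76 genes read above the array median on every array. Among 19 RGS genes, whose products switch G proteins off, Rgs17 (difference 0.68), Rgs9 (0.55) and Rgs1 (0.37) rose and none fell, with a median of 0.01. Rgs1, which damps chemoattractant signals in lymphocytes, averaged 10.66 ± 0.07 and 10.29 ± 0.036 in knockout and control (limma adjusted p = 0.0264). Of 27 G protein subunit genes Gnb4 rose by 0.37, while Gng12 fell by 0.45 and Gng2 fell by 0.35 (median -0.033). Of 11 receptor kinase and arrestin genes Arrdc3 (0.64) and Txnip (0.66) rose, and Arrb1, the gene of beta-arrestin 1, fell by 0.40 (median 0.04). Arrdc3 and Txnip are arrestin-domain genes, and whether they act downstream of these receptors was not tested. The adenylyl cyclase gene Adcy9 was the 1 pass among 19 cyclase and cyclic AMP effector genes, averaging 3.97 and 3.24 (difference 0.73, adjusted p = 0.0189, median of the list -0.027). Adcy9 was under the array median on every control array. Arrdc3 kept its call in each of 13 alternatives. The other 9 lost theirs in at least 1, among them Gnb4, Gng2 and Rgs1 in every fit that left out 1 array.

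**Figure D4:**
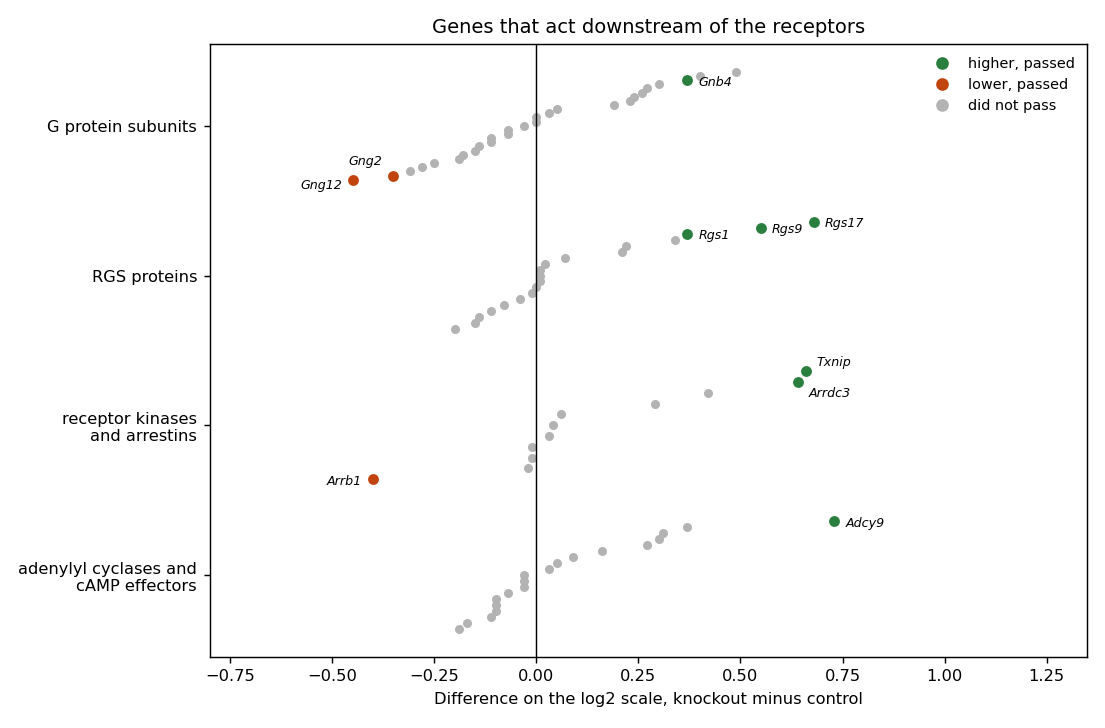
Difference on the log2 scale, knockout minus control, for 76 genes of 4 lists of signalling genes downstream of the receptors and genes related to them. Each gene is 1 point, with those that passed coloured and named. Adcy9 (0.73) lies furthest to the right, and Gng12 (-0.45) furthest to the left.

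Of 13 measured enzymes and precursors listed for ligands, 2 rose (15.4%, against 9.75% of all rows). Psap, whose product prosaposin is a proposed ligand of Gpr37, averaged 9.09 and 8.58 in knockout and control (limma adjusted p = 0.00611). Gpr37 itself averaged 2.23 and 2.29, under the median on every array. Penk, whose enkephalins act on opioid receptors outside these families, averaged 11.83 and 11.40 (adjusted p = 0.013). Ch25h and Cyp7b1, which make the oxysterol ligand of Gpr183, read under the median and did not pass. Outside the naming rule, Celsr1 fell by 0.43 among 3 cadherin-type adhesion receptors (adjusted p = 0.0433). Of 5 Gprc genes 0 passed the limma test and 0 had an unadjusted p under 0.05.

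Several of these receptors are also known from myeloid cells, so marker lists are given beside them. Of 16 macrophage, monocyte and dendritic cell markers 5 were above the array median on every array, 1 fell and none rose. Their summed log2 value was 53.1 to 53.9 in knockout arrays and 53.9 to 55.5 in control arrays. The macrophage receptor gene Csf1r read 2.71 and 2.86, under the median, and Itgax, which encodes CD11c, fell by 1.04. Of 13 T cell markers Zap70 (difference 0.33) rose and Trac (-0.61) and Foxp3 (-0.48) fell (summed 55.7 to 57.1 and 57.1 to 57.7). Above the array median on every array were 7 of these 13. Of 9 B cell markers Blnk rose by 2.10, and the other 8 did not pass and were under the array median on every array. The 9 B cell markers, Blnk included, summed to 25 to 26.4 in knockout arrays and 23.3 to 23.8 in control arrays. Among 13 mast cell, basophil and eosinophil markers 10 were under the array median on every array. Cpa3, a mast cell protease gene, averaged 3.96 in knockout and 6.87 in control (7.53-fold lower, limma adjusted p = 7.06e-05), while Hdc (1.46) and Gata2 (0.76) rose. These 13 markers summed to 38.7 to 40.6 in knockout arrays and 39.8 to 41.0 in control arrays. Among 13 stromal, epithelial and endothelial markers Dcn (0.65) rose and Pecam1 (-0.31) fell (56.9 to 58.2 and 57.3 to 59.0), and 7 were above the array median on every array. The ILC2 markers summed to 104.3 to 105.3 and 104.4 to 105.4 over 11 genes, of which 1 rose and 4 fell. The part of other cells in the receptor values was not tested.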

How the data were processed

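Per the labels' protocols, Trizol was used to extract total RNA from 6 samples, and biotin-labelled material went onto arrays of 1 colour. The authors deposited log2 expression values. RMA and limma 3.14.4 are listed, per the submitters' processing notes, with no step given for either. The log2 scale was read from the values (0.66 to 12.51) and is not stated in the labels. Quantile normalisation, which RMA includes, would hide a change shared by most genes, and low values understate changes. Of 25206 rows 23185 had 1 symbol, and all of these matched RefSeq (GRCm38.p6, names only) by Entrez number; the array's build is not given in the sources used here.

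Values were used as deposited, without a filter. The test was limma 3.58.1 in R 4.3.3 over all rows, knockout minus control, with the default prior (4.1 degrees of freedom), two-sided, and Benjamini-Hochberg adjustment over 25206 rows at 0.05. Fold changes are powers of the log2 differences. On simulated data of 25206 rows and the same comparison, the test found 25.4% of 67 rows given a log2 change of 0.5, 80.6% of 67 given 1 and 98.5% of 66 given 2. Of its 144 calls 8 were false. Far fewer rows were changed there than passed in the data (2457), which makes the adjustment stricter. Row variances were also shuffled across rows, so these shares need not hold for the real table. Groups and replicate numbers came from sample titles. Members and lists were chosen with earlier results of these data known, and 1 further pathway list is not reported here. Named were all members that passed, the 10 with the highest mean, a fixed panel of 21 members (19 with a row), the 3 nearest misses, Cbfb, and up to 4 genes of each pathway or marker list with the smallest adjusted p. All members above the median were named as well. Genes named for other reasons were chosen after values were seen. They include neighbours, overlapping genes, Gpr162, Gpr37, the markers Gata3, Klrg1, Ptprc, Thy1, Id2 and Csf1r, and Ch25h, Cyp7b1 and Pcsk1n. The alternatives were the replicate block, leaving out each array, a second quantile normalisation, centring, rows above the median row alone, a trended and robust prior, an ordinary test, and adjustment over rows with a symbol.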

Additional observations from a re-analysis of the deposited data

How the results depend on the processing

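Gpr141, Gpr171, Adgrg3, Gpr65, Adgrl3 and Adgrb3 kept their direction and their call in each of 13 alternatives, and the other 5 of the 11 calls were lost in at least 1, none with a change of sign. Calls for Gpr141b (adjusted p = 0.052), Gpr55 (0.0734) and Gpr34 (0.0927) were lost in the ordinary test without moderation alone, which has fewer degrees of freedom. Gpr119 was lost there (0.104) and without control replicate 1 (0.0533). The trended and robust prior called 5 receptor genes as higher, against 3, and the ordinary test 5 as lower, against 8. Over fits that left out 1 array, 3 to 4 were higher and 7 to 10 lower. Over all rows, against 2457 calls, the ordinary test gave 1254 and fits without 1 array 1307 to 1837 (1478, 1517, 1307 and 1565 without knockout replicate 2, knockout replicate 3, control replicate 2 and control replicate 3).

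Only 28 receptor genes were followed one by one: those that passed, the highest means, the fixed panel and the nearest misses. Of these 28, among those that missed the threshold, Adgrg1, Gpr174 and Gpr146 were each called in 3 of 13 alternatives, and Gpr183 and Adgrg7 in 1. The counts of calls in the alternatives also include receptor genes outside these 28, which are not listed.

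With the replicate number as a block, 3 receptor genes were higher and 7 lower, and 1745 rows passed in all, with Gpr132 lost (adjusted p = 0.0795). Deviations of same-numbered arrays from their group means correlated at 0.0249, 0.00669 and 0.0539, and not every array correlated best with its own number. No strong effect shared by same-numbered arrays was thus seen, but such correlations cannot settle whether the numbers pair the arrays. The block left 1 pathway gene lower, against 3.

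For the 76 pathway genes, against 7 higher and 3 lower, rows above the median row alone gave 14 higher and 5 lower, the trended and robust prior 6 lower, and the ordinary test 3 higher and 0 lower (6 lower at an unadjusted p under 0.05). Fits without 1 array gave 3 to 5 higher and 0 to 1 lower by limma (4 to 7 lower at an unadjusted p under 0.05). Gpr84 and Adgrl1, which differed by 0.02 and -0.02, changed sign without single arrays (-0.11 to 0.12 and -0.09 to 0.10). Members above the median on all arrays numbered 34 to 37 over the alternatives. Gpr141b, Gpr119, Gpr4, Gpr18, Gpr84 and Adgre1 have no value among rows above the median row. No detection calls were used, so how near background the low readings lie was not tested.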
